A study of Mus musculus with 5 samples.

Results

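Poly(ADP-ribose) polymerase genes and the ubiquitin ligase gene Dtx3l were followed in macrophages from the mouse peritoneum. Of the 30478 genes in the count table, 10 were taken by their symbols: Parp1, Parp2, Parp3, Parp8, Parp9, Parp10, Parp11, Parp12, Parp14 and Dtx3l. All 10 passed the filter on low values. The cells were sorted by flow cytometry from C57BL/6 mice and their mRNA was sequenced with a strand-specific kit. The 3 wild-type (wt) libraries came from a 13-week-old male, a 13-week-old female and a 9-week-old female. The other 2 libraries, called mutant here, came from 8-week-old females that were homozygous both for a Samhd1 deletion (del/del) and for a cGAS-GFP knock-in (ki/ki). SAMHD1 is a dNTP hydrolase whose loss is known to switch on interferon genes, and cGAS is the cytosolic DNA sensor upstream of STING. The series title asks how MDA5, a sensor of double-stranded RNA, depends on cGAS and STING when SAMHD1 is missing. Both alleles are present in both mutant libraries and no wt library is from an 8-week-old animal, so the Samhd1 deletion, the cGAS-GFP knock-in and age cannot be told apart. The 3 wt libraries differ from one another in sex or age and so come from different animals. The labels do not state that the 2 mutant libraries, both from 8-week-old females, are from different animals. The p-values here measure only how far these libraries spread, which between the mutants may be technical.

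Enzymes of this family transfer ADP-ribose from NAD+ to proteins or nucleic acids, as single units or as chains. PARP1, PARP2 and PARP3 are switched on by DNA breaks and act in DNA repair. PARP9, PARP10, PARP11, PARP12, PARP14 and DTX3L are known from other work as interferon-inducible, and PARP9 and PARP14 carry macrodomains, folds that bind ADP-ribose. DTX3L is an E3 ubiquitin ligase that forms a stable complex with PARP9.

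The libraries held 27282354 to 33119434 reads assigned to genes. Samhd1 itself was at 17824, 16777 and 18274 normalized counts in the 3 wt libraries and at 1279 and 1431 in the mutants, and Cgas was at 974.1, 1211.5 and 967.7 against 184.0 and 85.1, both genes being lower in each mutant library than in any wt library. All 9 macrophage markers had reads in every library. Of 6 markers of resident large peritoneal macrophages, 4 had reads in every library, but Gata6 and Timd4 were at 0 in all 5. Icam2, of the same list, averaged 337.5 in wt and 170.3 in mutant libraries (log2 difference -0.99, adjusted p = 0.018, limma). Prg4 (22.1 and 36.7) and Alox15 (18.4 and 20.3) did not pass, and Selp (1.79 and 6.04) was not tested. Summed normalized counts of 7 B-cell markers were 2684 to 3302 in wt and 5563 to 6700 in mutant libraries, with Ighm (immunoglobulin mu chain) higher in the mutant (log2 difference 1.16, adjusted p = 0.0105, limma). The summed macrophage markers were 276255 to 322981 in wt and 463088 to 755106 in mutant libraries. Ribosomal RNA (Rn18s) took 0.599 to 1.64% of wt reads and 4.04 to 5.28% of mutant reads. The part of these cell-type and RNA differences in the results was not tested. In such bulk libraries, fewer cells of a type and less RNA per cell cannot be told apart.

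The 6 interferon-linked genes (Parp9, Dtx3l, Parp14, Parp10, Parp11 and Parp12) all fell in the mutant macrophages, with levels 1.98- to 2.72-fold below wt, whereas none of the 3 DNA-repair genes passed the test. Each difference below is a log2 ratio of mutant over wt on the scale of log2(normalized count + 2), tested two-sided with limma and adjusted by Benjamini-Hochberg over all 14977 genes tested. At an adjusted p threshold of 0.05, 6 of the 10 genes were lower and 0 were higher, against 4.89% of all tested genes lower and 3.71% higher. Both mutant libraries lay below all 3 wt libraries for 8 of the 10 genes, against 26.9% of tested genes. The same 6 were called lower by edgeR (against 4.47% of tested genes lower and 4.29% higher) and by limma-voom (against 4.55% lower and 4.03% higher), and DESeq2 called these and Parp3 (against 8.73% lower and 7.48% higher). No call among the 6 was lost when any single wt library was left out (adjusted p 0.00299 to 0.0272, limma). Over any single left-out library, wt or mutant, the log2 differences were -1.50 to -0.89. Fits without a mutant library hold only 1 mutant and measure no spread among mutants, so no p is given for them.

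**Figure D1:**
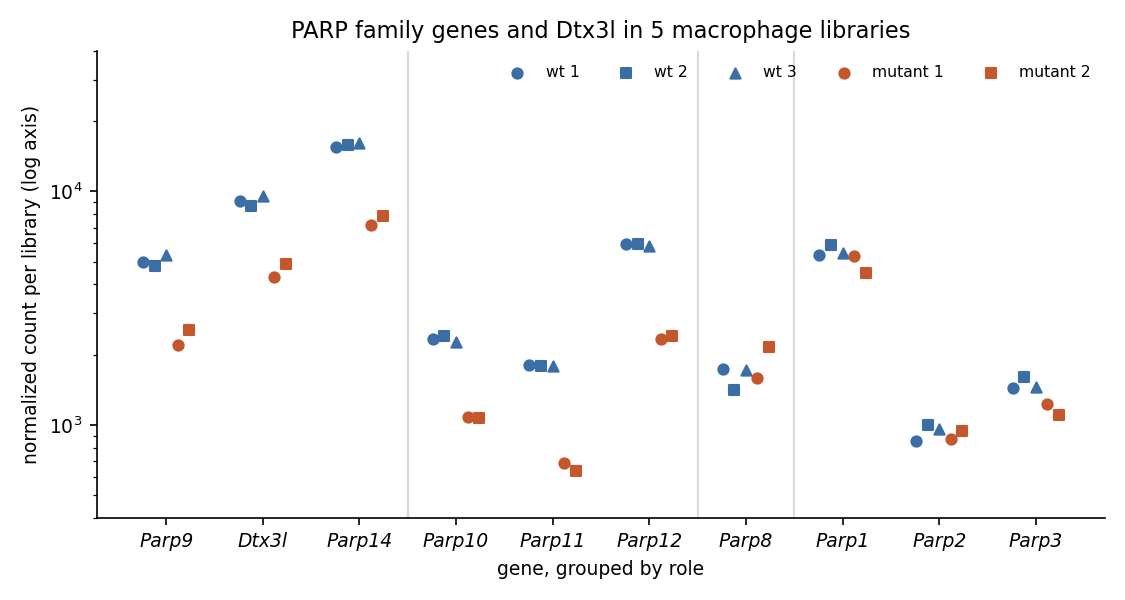
Normalized counts (log axis) of the 10 genes, 1 point per library, in 3 wt and 2 mutant libraries. The mutant points of Parp9, Dtx3l, Parp14, Parp10, Parp11 and Parp12 lie below all wt points by a wide gap, and those of Parp2 and Parp8 overlap the wt points.

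PARP9 has no strong transferase activity of its own, and its pairing with DTX3L is known to enhance interferon responses. Parp9 (ENSMUSG00000022906, GRCm38 chr16:35938470-35972605, plus strand) was at 5007, 4801 and 5334 normalized counts in wt and at 2196 and 2556 in mutant libraries. Every mutant value was less than every wt value, and the groups did not overlap. The log2 difference was -1.09 (SE 0.091, 95% interval -1.31 to -0.87, adjusted p = 0.00171, limma), from 5047.5 ± 268.9 (SD, n = 3) to 2376 ± 254.5 (SD, n = 2). Dtx3l (ENSMUSG00000049502, chr16:35926511-35939151, minus strand) was at 9078, 8666 and 9588 in wt and at 4302 and 4904 in mutant libraries. Its groups were likewise apart, and mutant 1 was the lower of the mutants for both partners. Dtx3l fell by 0.99 on the log2 scale (SE 0.0858, 95% interval -1.19 to -0.78, adjusted p = 0.00198, limma), from 9111 ± 461.8 (SD, n = 3) to 4603 ± 426.0 (SD, n = 2).

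Parp14 encodes a mono-ADP-ribosyltransferase with several macrodomains that was first described as a coactivator of STAT6. Parp14 (ENSMUSG00000034422, chr16:35832874-35871544, minus strand) was at 15429, 15783 and 16093 normalized counts in wt and at 7159 and 7857 in mutant libraries. The wt libraries were close together and both mutants lay far under them. The log2 difference was -1.07 (SE 0.0726, 95% interval -1.25 to -0.90, adjusted p = 6.61e-04, limma), a 2.10-fold lower level.

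Parp14, Dtx3l and Parp9 lie side by side on chromosome 16, within 139.7 kb on GRCm38 (GENCODE M21). The gene models of Parp9 and Dtx3l share 682 bases on opposite strands, and 54966 bases separate Parp14 from Dtx3l. Within 500 kb on either side of the annotated start of Dtx3l, 12 genes were tested: the cluster's 3 genes and 9 others, of which 0 were lower and 1 was higher. That gene, Slc49a4, a membrane transporter gene, averaged 631.1 in wt and 1000.5 in mutant libraries (log2 difference 0.66, adjusted p = 0.0216, limma), and its call was lost when any 1 wt library was left out (adjusted p 0.0927 to 0.114). Kpna1, an importin gene beyond Parp9, averaged 2178 in wt and 2194 in mutant libraries (log2 difference 0.0043, adjusted p = 0.983, limma). Hspbap1, on the Parp14 side, had a log2 difference of 0.18 (adjusted p = 0.486, limma). Among the 9, Gm49730, which lies within Parp14 on the same strand, had -1.20 (adjusted p = 0.0665) and Gm15564, which lies antisense to Parp9 over 5854 bases, had 1.19 (adjusted p = 0.0853); neither passed the limma test. The kit keeps strand, but whether strand was used in the counting is not stated, so reads of Parp9 and of its antisense partners Dtx3l and Gm15564 may not be fully separated.

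**Figure D2:**
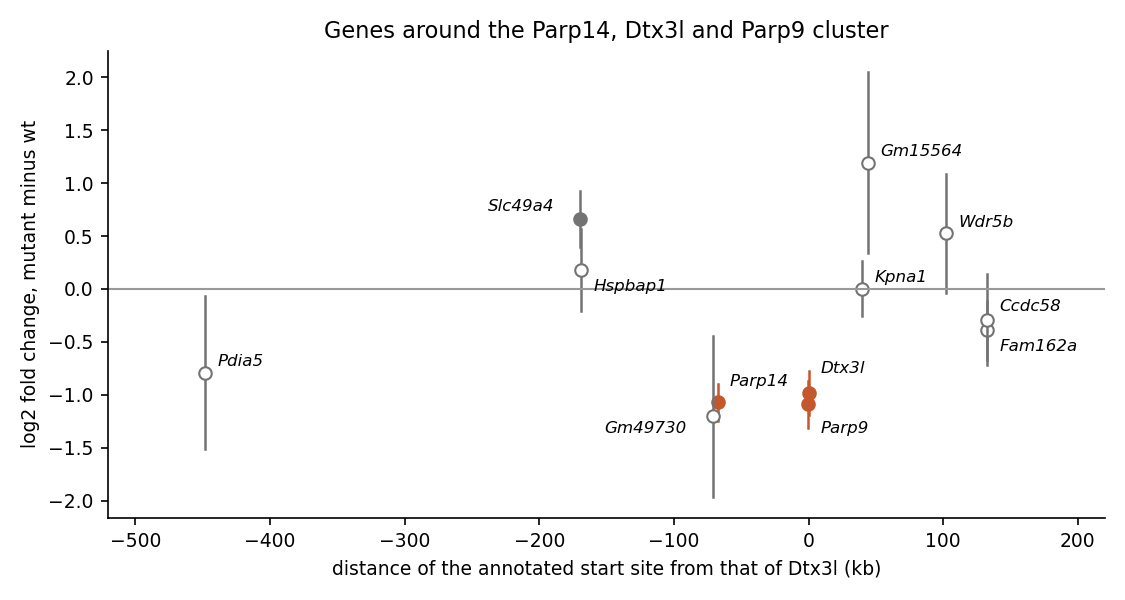
Log2 difference (mutant over wt, points with 95% intervals) of the 12 tested genes within 500 kb of the annotated start of Dtx3l, against the distance of each start site from that of Dtx3l in kb, with filled points for genes that passed the test. The cluster's 3 genes sit near -1, while Kpna1 sits at 0.0043 and Slc49a4 at 0.66.

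PARP10, PARP11 and PARP12 attach single ADP-ribose units. PARP12, a zinc-finger protein known to restrict alphaviruses, and PARP11, which is linked to the nuclear envelope, both carry WWE domains that bind ADP-ribose. Parp12 (ENSMUSG00000038507, chr6:39086410-39118349, minus strand) was at 5949.7, 5942.5 and 5826.5 normalized counts in wt and at 2343 and 2406 in mutant libraries. The replicates were tight in both groups. Parp12 fell by 1.31 on the log2 scale (SE 0.0612, 95% interval -1.46 to -1.17, adjusted p = 1.59e-04, limma). Parp11 (ENSMUSG00000037997, chr6:127446840-127494261, plus strand) was at 1814, 1795 and 1781.5 in wt and at 686.0 and 634.7 in mutant libraries. Of the 10 genes it had the largest difference, -1.44 (SE 0.0733, 95% interval -1.62 to -1.27, adjusted p = 2.10e-04, limma), a 2.72-fold lower level. Parp10 (ENSMUSG00000063268, chr15:76231174-76243441, minus strand), first found as a MYC-binding protein, was at 2330.3, 2412 and 2269 in wt and at 1078 and 1065 in mutant libraries. Both mutants were under the lowest wt library by more than the whole spread of the wt libraries. The log2 difference was -1.12 (SE 0.0678, 95% interval -1.29 to -0.96, adjusted p = 4.43e-04, limma). Parp10 shares 1401 bases on the same strand with Plec, the gene of the cytoskeletal linker plectin, which had a log2 difference of -0.45 (adjusted p = 0.0505, limma). Gm43633, an uncharacterised gene inside Parp11 on the same strand, averaged 22.3 normalized counts in wt and 8.13 in mutant libraries (log2 difference -1.25, adjusted p = 0.0488, limma). Its call was lost when any 1 wt library was left out (adjusted p 0.134 to 0.166).

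Around the cluster and the other genes of the family, 32 nearest protein-coding neighbours were listed and 23 tested, of which 2 were lower and 2 higher, Slc49a4 among the latter, against 4.89% and 3.71% of all tested genes. Ccnd2, the cyclin D2 gene 294647 bases from Parp11, was at 4011.5, 4812 and 4215 normalized counts in wt and at 901.3 and 354.0 in mutant libraries. Its groups were far apart, with a log2 difference of -2.93 (adjusted p = 0.00813, limma), larger than that of Parp11, and its call was lost without wt 1 (adjusted p = 0.0567) or wt 3 (adjusted p = 0.0550). Hipk2, a kinase gene 210245 bases from Parp12, had -0.38 (adjusted p = 0.0464, limma), and Emb, which encodes the membrane protein embigin near Parp8, had 0.66 (adjusted p = 0.0308, limma). The calls of Hipk2 and Emb were lost when any 1 wt library was left out, and that of Hipk2 also with no filter on low values (adjusted p = 0.0605).

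Parp8 encodes a mono-ADP-ribosyltransferase that is little characterised. Parp8 (ENSMUSG00000021725, chr13:116854820-117025537, minus strand) was at 1734, 1412 and 1723 normalized counts in wt and at 1586 and 2149 in mutant libraries. Mutant 1 lay among the wt libraries and mutant 2 above them. The log2 difference was 0.19 (SE 0.155, 95% interval -0.18 to 0.57, adjusted p = 0.434, limma). It depended on which mutant was used: without mutant 1 it was 0.41 and without mutant 2 it was -0.027. Each of these fits holds 1 mutant library, so no p is given for them.

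Among the DNA-repair genes, Parp1 (ENSMUSG00000026496, chr1:180568924-180601254, plus strand) encodes the main maker of ADP-ribose chains at DNA breaks. It was at 5329, 5876 and 5433 normalized counts in wt and at 5287 and 4465 in mutant libraries. Mutant 1 was just under the lowest wt library and mutant 2 further below. The log2 difference was -0.19 (SE 0.0945, 95% interval -0.42 to 0.039, adjusted p = 0.223, limma). Parp2 (ENSMUSG00000036023, chr14:50807841-50821301, plus strand), which shares the break-sensing role, was at 855.5, 1001.5 and 957.5 in wt and at 870.0 and 946.2 in mutant libraries. Its groups overlapped, and the log2 difference was -0.045 (SE 0.0977, 95% interval -0.28 to 0.19, adjusted p = 0.782, limma). Parp3 (ENSMUSG00000023249, chr9:106470322-106476949, minus strand), which acts in end joining of double-strand breaks, was at 1437.5, 1596 and 1449 in wt and at 1231 and 1100.4 in mutant libraries. Both mutants were below all wt libraries. The log2 difference of -0.36 (SE 0.089, 95% interval -0.57 to -0.14) did not pass the limma test (adjusted p = 0.0588, unadjusted p = 0.00618). Parp3 passed with DESeq2 (log2 difference -0.35, adjusted p = 0.0244), so the count of repair genes lower is 0 or 1 of 3 depending on the test. Without mutant 1 the limma log2 difference was -0.44 for Parp3 and -0.31 for Parp1. That fit holds 1 mutant library and measures no spread among mutants, so no p is given for it. Parp3 shares 987 bases with Rrp9 on the opposite strand, a ribosomal RNA processing gene with a log2 difference of -0.70 (adjusted p = 0.0710, limma).

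Set side by side, the interferon-linked and DNA-repair genes differed in size of change. The 6 interferon-linked genes had log2 differences of -1.44 to -0.99 with a median of -1.11, the 3 repair genes had -0.36 to -0.045 with a median of -0.19, and the median over all tested genes was 0.00033. The 95% interval nearest to zero among the 6 ended at -0.78 (Dtx3l), which is below the lowest bound among the repair genes, -0.57 (Parp3). Within each library, the mean log2 level of the 6 less that of the repair genes was 1.45, 1.26 and 1.40 in wt and 0.31 and 0.48 in mutant libraries. The wt values lay far above the mutant values. The mean was 1.37 ± 0.0957 (SD, n = 3) in wt and 0.396 ± 0.120 (SD, n = 2) in mutant libraries, a difference of -0.97, which is given with no test because the genes were chosen with results known.

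**Figure D3:**
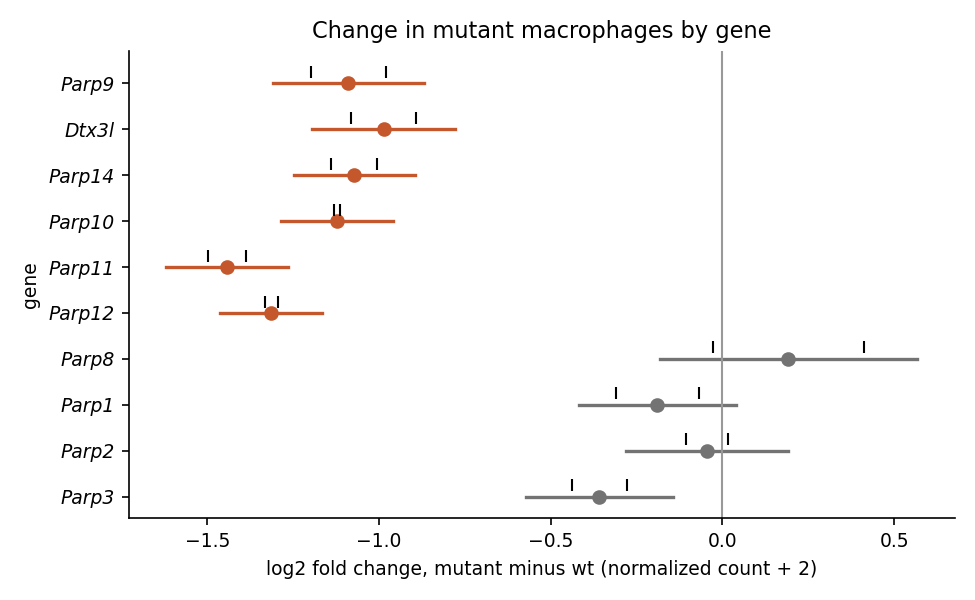
Log2 difference (mutant over wt) of each gene as a point with its 95% interval, grouped by role and red where the test was passed, with black ticks for each mutant library against the wt mean. Parp9, Dtx3l, Parp14, Parp10, Parp11 and Parp12 lie between -1.44 and -0.99, and the intervals of Parp8, Parp1 and Parp2 include 0.

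Within the interferon-linked genes, the sizes were not all alike. The ratio of Parp9 to Parp14 counts was 0.325, 0.304 and 0.332 in wt and 0.307 and 0.325 in mutant libraries, so the groups overlapped. That of Dtx3l to Parp14 was 0.588, 0.549 and 0.596 in wt and 0.601 and 0.624 in mutant libraries, slightly higher in both mutants. The ratio of Parp9 to Dtx3l, the partners of one complex, was 0.552, 0.554 and 0.556 in wt and 0.511 and 0.521 in mutant libraries. The wt ratios were nearly identical and both mutants lay a little below. The ratio of Parp11 to Parp14 was 0.118, 0.114 and 0.111 in wt and 0.0958 and 0.0808 in mutant libraries, and that of Parp12 to Parp14 was 0.386, 0.377 and 0.362 in wt and 0.327 and 0.306 in mutant libraries. Parp11 and Parp12 counts were thus lower relative to Parp14 in both mutants than in any wt library, while the ratio of Parp10 to Parp14 overlapped (0.151, 0.153 and 0.141 against 0.151 and 0.136). The mutants were not ordered alike for all genes: relative to the wt mean, Parp9, Dtx3l and Parp14 were at -1.20, -1.08 and -1.14 in mutant 1 and at -0.98, -0.89 and -1.01 in mutant 2, whereas Parp11 was at -1.39 in mutant 1 and -1.50 in mutant 2. These ratios were not tested.

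**Figure D4:**
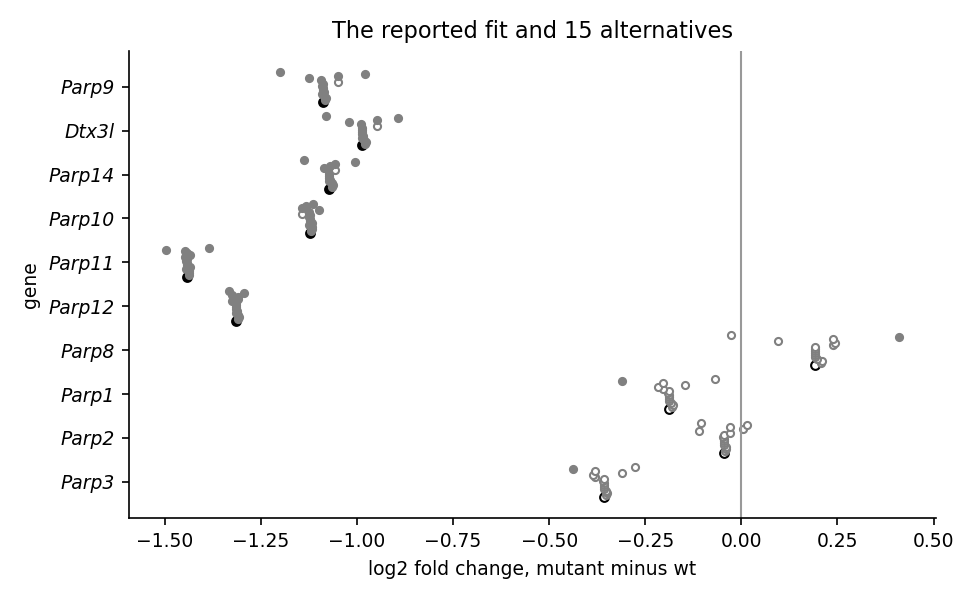
Log2 difference (mutant over wt) of each gene under the reported fit and 15 alternative settings, 1 mark per setting, with the reported fit in black and filled marks where the adjusted p was under 0.05. The marks of Parp11 lie between -1.50 and -1.39 and those of Dtx3l between -1.08 and -0.89, while those of Parp8 spread from -0.027 to 0.41. Filled marks of the settings without a mutant library rest on 1 mutant and measure no spread among mutants.

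Levels of different genes were compared as normalized counts per kb of annotated exon. In wt cells Parp14 stood at 1694 ± 35.7 per kb and Dtx3l at 1591 ± 80.7 (SD, n = 3), and their ranges over libraries overlapped. Parp12 followed at 1478 ± 17.3, then Parp1 at 1048 ± 54.9 and Parp9 at 1036 ± 55.2, which overlapped. Parp10 was at 546.7 ± 16.8, Parp3 at 404.0 ± 23.98, Parp2 at 258.6 ± 20.6 and Parp11 at 255.7 ± 2.31, the last pair overlapping, and Parp8 at 182.7 ± 20.6. Part of this order depends on the length used: per kb of the longest transcript, Parp12 (1828) stood above Dtx3l (1716), and Parp11 (479.6) and Parp8 (472.3) stood above Parp2 (431.7), which became the lowest. The mutant order and the shares below are for the exon length only. In mutant cells Parp1 had the highest mean, 921.3 ± 110 per kb (SD, n = 2), and its range overlapped that of Parp14 (806.8 ± 53.0), which overlapped that of Dtx3l (804.0 ± 74.4). Parp12 (594.3 ± 11.2), Parp9 (487.7 ± 52.2) and Parp3 (315.1 ± 24.98) came next without overlap. The range of Parp2 (250.3 ± 14.9) overlapped those of Parp10 (250.7 ± 2.17) and Parp8 (210.3 ± 44.8), while Parp10 lay above Parp8 without overlap. Parp11 (93.99 ± 5.16) was the least abundant. Of the summed per-kb level of the 10 genes, the 6 interferon-linked genes made up 78.2, 76.7 and 78.2% in wt and 62.4 and 65.8% in mutant libraries.

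**Figure D5:**
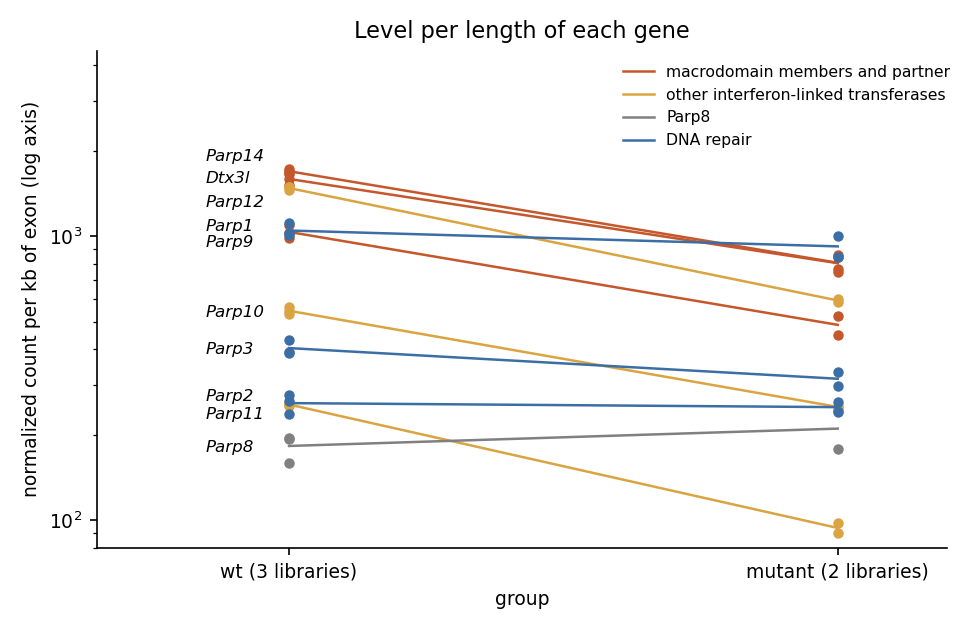
Normalized counts per kb of exon of the 10 genes in wt and mutant libraries, on a log axis, with 1 point per library and lines joining the group means, coloured by role. Parp14 has the highest mean in wt at 1694, overlapping Dtx3l, and Parp1 in mutant cells at 921.3, and Parp11 is lowest in mutant cells at 93.99.

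Promoter windows were read for interferon-type motifs because the 6 genes that fell are known interferon targets. RefSeq windows on GRCm38.p6, running from 250 bases before to 50 bases after the annotated start, were listed for 7 of the 10 genes (8 windows, with 2 for Parp11), and none for Parp9, Parp10 and Parp14. The windows of Parp11, which fell the most, of Dtx3l and Parp12, which also fell, and of Parp1, which did not pass, are given 5′ to 3′ on the strand of the gene, with motif matches in capitals:
Parp11, chr6:127446590-127446889, plus strand: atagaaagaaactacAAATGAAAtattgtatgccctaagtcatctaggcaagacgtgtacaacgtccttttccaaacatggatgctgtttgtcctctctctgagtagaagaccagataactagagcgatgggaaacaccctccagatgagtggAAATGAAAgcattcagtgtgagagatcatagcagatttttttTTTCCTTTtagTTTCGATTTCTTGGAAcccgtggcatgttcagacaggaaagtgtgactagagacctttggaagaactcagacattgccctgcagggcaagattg
Dtx3l, chr16:35938978-35939277, minus strand: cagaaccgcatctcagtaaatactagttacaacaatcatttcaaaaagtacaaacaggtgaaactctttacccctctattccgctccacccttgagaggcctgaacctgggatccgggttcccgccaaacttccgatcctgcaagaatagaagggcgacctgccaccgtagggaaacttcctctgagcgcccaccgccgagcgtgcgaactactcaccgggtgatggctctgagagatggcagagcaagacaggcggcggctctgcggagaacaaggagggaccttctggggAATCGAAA
Parp12, chr6:39118300-39118599, minus strand: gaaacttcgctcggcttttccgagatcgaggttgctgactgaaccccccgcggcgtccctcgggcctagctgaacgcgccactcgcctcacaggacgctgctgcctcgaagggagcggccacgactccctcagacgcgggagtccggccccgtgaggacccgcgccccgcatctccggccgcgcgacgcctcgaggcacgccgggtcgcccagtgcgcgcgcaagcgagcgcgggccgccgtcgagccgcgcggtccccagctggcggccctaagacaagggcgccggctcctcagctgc
Parp1, chr1:180568641-180568940, plus strand: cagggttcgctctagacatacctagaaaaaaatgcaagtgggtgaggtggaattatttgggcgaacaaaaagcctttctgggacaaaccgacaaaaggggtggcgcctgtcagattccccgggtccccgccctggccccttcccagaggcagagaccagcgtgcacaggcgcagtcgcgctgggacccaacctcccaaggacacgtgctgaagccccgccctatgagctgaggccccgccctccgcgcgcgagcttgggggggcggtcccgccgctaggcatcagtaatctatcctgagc
On both strands, 3 motifs were searched: the core of the interferon-stimulated response element, which is GAAA, any 2 bases and GAAA; the shorter core bound by interferon regulatory factors, AANNGAAA, which is contained in the former; and the STAT-type palindrome TTCNNNGAA. They occur in 3.44%, 23.9% and 8.30% of all 32851 windows of 300 bases. The Parp11 window held 1 response-element match (TTTCGATTTC, on the opposite strand, beginning 44 bases before the start), 4 matches of the shorter core including the one inside it, and 1 palindrome match (TTCTTGGAA, beginning 37 bases before the start), which overlaps the response element. The Dtx3l window held 1 match of the shorter core (AATCGAAA, 42 bases after the start). The windows of Parp12, Parp1, Parp3, Parp8 and the second Parp11 start held no match, and that of Parp2 held 1 match of the shorter core (TTTCGTTT). Outside the 10 genes, the window of Parp4 held 2 response-element matches, and its log2 difference was 0.02 (adjusted p = 0.867, limma). A match is a description of letters and not a bound site.

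Called genes among the other genes of ADP-ribose metabolism are read against the 4.89% of all tested genes that were lower and the 3.71% that were higher. Of 13 further ADP-ribosyltransferase genes in the table, 7 were tested, 1 was lower and 0 were higher, with a median log2 difference of 0.03. The gene that fell, Zc3hav1, encodes PARP13 or ZAP, an antiviral protein that binds CpG-rich viral RNA and lacks transferase activity. It was at 8843, 9239 and 9383 normalized counts in wt and at 7127 and 7562 in mutant libraries. The groups did not overlap, and the log2 difference was -0.32 (SE 0.0683, adjusted p = 0.0424, limma), a call lost when any 1 wt library was left out (adjusted p 0.139 to 0.180) and with no filter on low values (adjusted p = 0.0640). Tiparp, an aryl hydrocarbon receptor target that encodes PARP7, had 0.33 (adjusted p = 0.227, limma). Of 16 genes for ADP-ribose hydrolases and readers, 0 were lower and 1 was higher, with a median of -0.02. With 1 call among 7 and 1 among 16 tested genes, both lists are too short to compare with the share of all tested genes. The higher gene, Macrod1, which removes single ADP-ribose units, was at 209.7, 175.9 and 197.4 in wt and at 283.8 and 401.9 in mutant libraries. Mutant 2 was the highest library. The log2 difference was 0.79 (adjusted p = 0.0456, limma), a call lost when any 1 wt library was left out (adjusted p 0.145 to 0.158). Hpf1, which directs PARP1 and PARP2 to serine, had -0.54 (adjusted p = 0.0866, limma).

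Of the other deltex genes, which encode relatives of DTX3L, 3 were tested and 0 passed with limma. At an unadjusted p under 0.05, 0 were lower and 2 higher, a count not set beside its share over all tested genes. With edgeR 1 was higher and with DESeq2 2 were, against 4.29% and 7.48% of all tested genes. Among 17 tested genes of NAD supply and use, 1 was lower and 0 were higher, near the 4.89% and 3.71% of all tested genes, with a median of 0.03. The lower gene was Nampt, the rate-limiting enzyme of NAD salvage, at 5162, 5554 and 4972 in wt and 3637 and 3848 in mutant libraries. Its groups were apart, with a log2 difference of -0.48 (adjusted p = 0.0182, limma), lost without any 1 wt library (adjusted p 0.0695 to 0.109). Of 21 genes of base excision, single-strand break and end-joining repair, the partners of PARP1 to PARP3, 0 passed with limma or edgeR. DESeq2 called 3 lower, against 8.73% of all tested genes. At an unadjusted p under 0.05 in limma, 6 were lower and 0 higher, and 20 of the 21 were negative. Neither count was set beside its share over all tested genes, so neither is read as a result. The median log2 difference of these genes was -0.18, against 0.00033 over all tested genes. Their median against the wt mean was -0.075, 0.095 and -0.042 in the wt libraries, -0.15 in mutant 1 and -0.30 in mutant 2. These medians were not tested. Lig1, the replicative DNA ligase, was at 2432, 2842 and 2461 in wt and at 2015 and 784.6 in mutant libraries (adjusted p = 0.114, limma).

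Signalling genes around the family were split. Of 13 genes of interferon receptor signalling, 5 were lower and 1 was higher, against 4.89% lower and 3.71% higher over all tested genes. The median over the list was -0.09, and against the wt mean it was -0.15 in mutant 1 and 0.07 in mutant 2, with opposite signs in the mutants. Irf7, the interferon-inducible master regulator of type I interferon genes, fell by 3.80 on the log2 scale (adjusted p = 1.44e-05, limma). Stat2 also fell (-1.86, adjusted p = 0.00614, limma), as did Irf9 (-0.53, adjusted p = 0.00813, limma) and Irf1 (-0.38, adjusted p = 0.0328, limma). Ifnar1, which encodes a receptor subunit for type I interferons, rose (0.40, adjusted p = 0.0242, limma). Of 11 genes of STAT6 and the interleukin 4 response, where PARP14 is known to act, 1 was lower and 2 were higher, against 4.89% lower and 3.71% higher over all tested genes. The list's median was 0.49, and against the wt mean it was 0.09 in mutant 1, 0.50 in mutant 2 and -0.325 in wt 2, so mutant 1 lay close to wt. Stat6 itself was at 10061, 10089 and 10147 in wt and at 9371 and 9565 in mutant libraries (log2 difference -0.09, adjusted p = 0.343, limma). Il4ra, the interleukin 4 receptor chain, was at 3021, 2842 and 2970 in wt and at 3987 and 5544 in mutant libraries. Both mutants were higher than wt, and the log2 difference was 0.68 (adjusted p = 0.0375, limma). Mrc1, the mannose receptor, had 0.57 (adjusted p = 0.0383, limma) and Socs1, a feedback inhibitor of cytokine signalling, had -1.02 (adjusted p = 0.0338, limma). The calls of Irf1, Ifnar1, Il4ra, Mrc1 and Socs1 were each lost without any 1 wt library, and that of Irf9 without wt 1 or wt 3.

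The genes whose pattern over the 5 libraries was nearest to that of Parp14, by the root mean square difference in log2 level relative to the wt mean, were Daxx (0.0357), Parp9 (0.0501), Sp100 (0.0509), Samd9l (0.0554) and Ifi203 (0.0626). Sp100 at 8932.5, 8802 and 9275.5 in wt and 3852 and 4295 in mutant libraries illustrates the likeness. Those nearest to Parp1 were Sympk (0.0110), Tsnax (0.0124), Wdr5 (0.0144), Ubr7 (0.0148) and Vcp (0.0160), none of which passed the limma test. This order covers 5 libraries only and is a description.

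In the authors' deposited table, where the log2 fold change is wt over mutant, the same 6 genes were below an adjusted p of 0.05 and lower in the mutant, against 3.66% of its 30478 genes. The authors' deposited table gives 1.29 for Parp11, 1.24 for Parp12, 1.10 for Parp10, 1.06 for Parp9, 1.06 for Parp14 and 0.954 for Dtx3l. In the authors' deposited table Parp3 had 0.364 (adjusted p = 0.0692), Parp1 had 0.194 (adjusted p = 0.315), Parp2 had 0.0685 (adjusted p = 0.672) and Parp8 had -0.188 (adjusted p = 0.432).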

How the data were processed

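The submitters' processing notes name STAR, Subread with featureCounts, mouse build mm10 and DESeq 1.6.1. Settings, annotation release and strand use in counting are not stated there. The authors deposited 1 signal value per gene and library, and the values show it to be reads scaled by a size factor: within 0.001 reads, 100% were whole multiples of 1 read. The log2 fold changes, p-values and adjusted p-values the authors deposited are named as theirs where printed. The GC percent the authors deposited and the scores they deposited per the file headers (standard error, test statistic and weight) were not used. Their mean exceeded 0 in all 3266 rows where these 5 libraries hold 0 reads, so further libraries, not analysed here, entered their fit. Genes lie on chromosomes 1 to 19. GENCODE M21 gave GRCm38 positions for 97.1% of genes through Ensembl identifiers.

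Genes at a normalized count of 10 or more in at least 2 libraries entered limma 3.58.1 (R 4.3.3), fitted with a trended variance prior to log2(normalized count + 2). On this scale changes of genes with few reads come out too small. Recovered counts gave the edgeR 4.0.16, DESeq2 1.42.0 and limma-voom alternatives. The fit was tested on simulated data. Levels per kb used the exon union. Replicates differed beyond sampling noise (mean chi-square per gene 14.3 to 26.0 among wt, 61.6 for the mutants), and each library counted as 1 sample. The 10 genes, the lists of related genes and the markers were chosen with earlier results of these data known. All 10 genes were named, with the called genes of each list (up to the 4 of lowest adjusted p), genomic neighbours, and the 5 genes nearest to Parp14 and to Parp1. Values of 1 called gene of the interferon receptor signalling list are not reported here. List genes named without having passed, Lig1 among them, and Gm49730, Gm15564, Gm43633, Plec and Rrp9 were chosen after their values were seen.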

Additional observations from a re-analysis of the deposited data

How the results depend on the processing

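The log2 differences of Parp9, Dtx3l, Parp14, Parp10, Parp11 and Parp12 kept their direction and their calls under edgeR, DESeq2, limma-voom, pseudocounts of 0.5 and 8, both filters, TMM scaling, a robust prior and each left-out wt library. They also kept their direction when either mutant library was left out. Only the replicate block ended calls. The numbers shared by the groups name no animal, litter or day, so the block is no design-based pairing. Same-numbered libraries had deviations correlated at -0.228 and -0.362 over 14977 genes. With 2 mutants, the deviations of 1 mirror those of the other, so these correlations cannot show whether a pairing exists. With the replicate block 2 genes of the family stayed lower (Parp11, adjusted p = 0.0433, and Parp12, adjusted p = 0.0469, limma), while Parp9 had -1.05 (adjusted p = 0.106), Dtx3l -0.95 (adjusted p = 0.129), Parp14 -1.06 (adjusted p = 0.104) and Parp10 -1.14 (adjusted p = 0.0728). The block left 6 genes higher and 75 lower (0.501%) among all genes, and 0 higher and 2 lower in the lists of related genes, and uses up residual degrees of freedom.

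Over all genes, 556 were higher and 732 lower. DESeq2 called 1121 and 1308, and leaving out 1 library gave 29 to 2062 higher and 173 to 2929 lower, with the highest counts without mutant 1. In the lists, 4 were higher and 8 lower. The higher count became 7 with edgeR and 9 with DESeq2, the lower count 13 with DESeq2, and leaving out 1 library gave 0 to 19 and 3 to 17. Leaving out 1 wt library left 6 members of the family lower and 0 higher. Over all left-out libraries, log2 differences were -0.027 to 0.41 for Parp8, -0.31 to -0.068 for Parp1, -0.11 to 0.015 for Parp2 and -0.44 to -0.28 for Parp3. Parp8 turned to -0.027 without mutant 2, and Parp2 to 0.0035 without wt 2 and 0.015 without mutant 1. With DESeq2, Parp3 was called at -0.35 (adjusted p = 0.0244). The difference between interferon-linked and repair genes was -1.06 to -0.89 across left-out libraries. Per kb of the longest transcript, wt levels were 1423 for Parp9, 1716 for Dtx3l, 2126 for Parp14, 686.0 for Parp10, 479.6 for Parp11, 1828 for Parp12, 472.3 for Parp8, 1432 for Parp1, 431.7 for Parp2 and 504.5 for Parp3, because that length is shorter than the exon union, and the order changed for Parp12 with Dtx3l and for Parp2 with Parp11 and Parp8. The cause of the other shifts was not tested. With 2 mutant libraries, a change the size of that of Parp3 lies near the limit of detection, and 95% intervals of Parp1, Parp2 and Parp8 allow changes of up to -0.42, -0.28 and 0.57.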
